A study of Mus musculus with 2 samples.

Results

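The cytosolic ribosomal protein genes of the neonatal mouse heart are described here, together with the paralogs that share their names. Members were the protein-coding genes whose symbol starts with Rpl or Rps and a number, plus Rplp0, Rplp1, Rplp2 and Rpsa, with symbols holding -ps and the Rps6k kinases left out. This rule gave 86 of 43346 Ensembl genes, among them 21474 protein-coding genes. Of the members, 77 were core genes of the ribosome, 46 of the large and 31 of the small subunit. The other 9 were the paralogs Rpl3l, Rpl7l1, Rpl10l, Rpl22l1, Rpl36al, Rpl39l, Rps27l and Rps27rt, and Rps19bp1, which encodes a nucleolar protein that binds Rps19 and is no ribosomal protein. Rps4l, Rps3a2 and Rps3a3 are annotated as pseudogenes, so they were no members and are given only beside their parent genes.

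Total RNA was sequenced from 2 single hearts of the strain B6NCrl at postnatal day 0, replicate 1 from pup 2 and replicate 2 from pup 3 of pregnancy 1, with no treatment. Each library was made from 10 ng of RNA in the size range above 200 bases. There was 1 group (n = 2), the sex of the pups was not collected, and both samples carry 1 donor identifier, so the pups were taken as separate animals from their descriptions alone. No test between groups was possible, and spreads given here are those between these 2 hearts, which may be technical. The libraries held 46151722 and 44707283 expected counts, the estimated number of reads per gene. Levels are in TPM, a unit that divides counts by transcript length and scales each library to the same total. The heart label fitted its markers: Actc1 stood at 16412 and 13902 TPM and Tnnt2 at 10667 and 9972 TPM, while the testis marker Prm1 had 2 and 1 counts.

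The cytosolic ribosome is built from ribosomal RNA and about as many different proteins as there are core genes, most of which are present once in every ribosome. The large subunit joins amino acids and holds the tunnel through which the new chain leaves, and the small subunit reads the mRNA. Messages of these genes often begin with a C followed by a run of pyrimidines, through which the mTOR kinase controls their translation. In the heart the best known variation is Rpl3l, a paralog of Rpl3 found in striated muscle, where it takes the place of Rpl3 after birth.

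The sequences on which several of the levels turn are those of near-identical gene copies. Rps27 (chr3:90212522-90213651, minus strand), a small subunit protein, has a retrogene, Rps27rt (chr9:114982366-114982739, minus strand), and a diverged paralog, Rps27l (chr9:66946086-66949516, plus strand), all coordinates on GRCm38. Their coding sequences are each 255 bases long. Rps27 and Rps27rt were identical at 255 of 255 bases, and Rps27 and Rps27l at 194, or 76.1%. The first 90 coding bases are shown, with capitals for the 24 bases at which Rps27 and Rps27l differ in this stretch.
Rps27: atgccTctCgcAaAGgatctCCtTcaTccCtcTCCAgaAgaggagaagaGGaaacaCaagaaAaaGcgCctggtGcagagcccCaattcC
Rps27l: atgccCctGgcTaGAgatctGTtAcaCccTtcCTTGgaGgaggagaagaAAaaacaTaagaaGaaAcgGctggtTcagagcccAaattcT

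The muscle paralog Rpl3l (chr17:24727820-24736143, plus strand) was 73.2% identical to Rpl3 (chr15:80077791-80091868, minus strand) over the aligned coding sequences of 1224 and 1212 bases. The first 90 coding bases are shown because a read can be placed on 1 of these genes by the 21 differences, in capitals.
Rpl3: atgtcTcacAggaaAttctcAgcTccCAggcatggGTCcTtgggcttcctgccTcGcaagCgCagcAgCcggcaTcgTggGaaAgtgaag
Rpl3l: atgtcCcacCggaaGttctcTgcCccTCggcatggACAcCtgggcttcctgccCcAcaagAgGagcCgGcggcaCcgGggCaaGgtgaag

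Rpl5 and Rpl41 mark the ends of the core levels. Rpl5 (chr5:107900502-107909005, plus strand) has a processed pseudogene, Gm15500 (chr7:114705217-114706235, minus strand), that holds all 894 of its coding bases without a mismatch, so the first 60 coding bases below belong to both. Rpl41 (chr10:128548114-128549305, minus strand) is the smallest protein of the large subunit, and its whole coding sequence of 78 bases is given. The deposited transcript models of Rpl41 were longer, its main one being 437 bases.
Rpl5 and Gm15500: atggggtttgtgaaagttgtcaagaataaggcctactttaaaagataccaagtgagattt
Rpl41: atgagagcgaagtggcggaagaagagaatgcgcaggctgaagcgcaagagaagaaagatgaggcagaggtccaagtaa

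Ribosomal protein genes were abundant as a class. At 1 TPM or more in both hearts, 84 of 86 members were detected, against 54.5% of protein-coding genes, and the exceptions were Rpl10l and Rpl39l. Members took 3.39% of all TPM in replicate 1 and 3.53% in replicate 2. Without division by length they took 1.59% and 1.70% of counts. The median core gene stood at 366 TPM, with medians of 360 and 376 TPM in the hearts, which was 30.5-fold above the median of 11.995 TPM of the detected protein-coding genes. Of the 77 core genes, 73 lay above the 90th percentile of those genes (96.3 TPM) and 3 above the 99th (1005 TPM). These 3 were Rpl41, Rps29 and Rpl36.

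The large and the small subunit were level at the median, at 362 and 366 TPM. The difference of the medians, large minus small on the log2(TPM + 1) scale, was -0.02 ± 0.03 (SD, n = 2), within the spread between the hearts. Large subunit genes were spread more widely, with an SD over genes of 1.17 and 1.204 log2 units in the hearts against 0.78 and 0.78 for the small subunit. With the counts of pseudogene copies added, as described further on, these SDs were 0.745 and 0.648. Proteins kept in bacteria and archaea as well, encoded by 33 of the core genes, had a median of 372 TPM, beside 362 TPM for the 44 others. Across the 77 genes the order of levels hardly differed between the hearts (Spearman's rho of 0.997, a description over genes that share their libraries).

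The most abundant core gene was Rpl41, at 1606 and 1658 TPM, rank 71 among protein-coding genes. Rps29, a zinc-binding protein of the small subunit, followed at 1201 and 1238 TPM. Rpl36 of the large subunit stood at 1146 and 1212 TPM. These 3 genes were set apart from the fourth, Rpl37a, at 809 and 858 TPM, by more than the spread between the hearts. Rpl32 had 817 and 844 TPM, and Rps14 had 772 and 824 TPM. Rps19, whose human counterpart is mutated in Diamond-Blackfan anaemia, had 755 and 797 TPM, and Rps25 of the small subunit head had 727 and 793 TPM. Rplp1 and Rplp2, given below, completed the 10 highest. Rpl37a and Rpl32 changed places between the hearts, Rpl37a being the lower in replicate 1 and the higher in replicate 2. The others kept their order in both hearts.

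**Figure D1:**
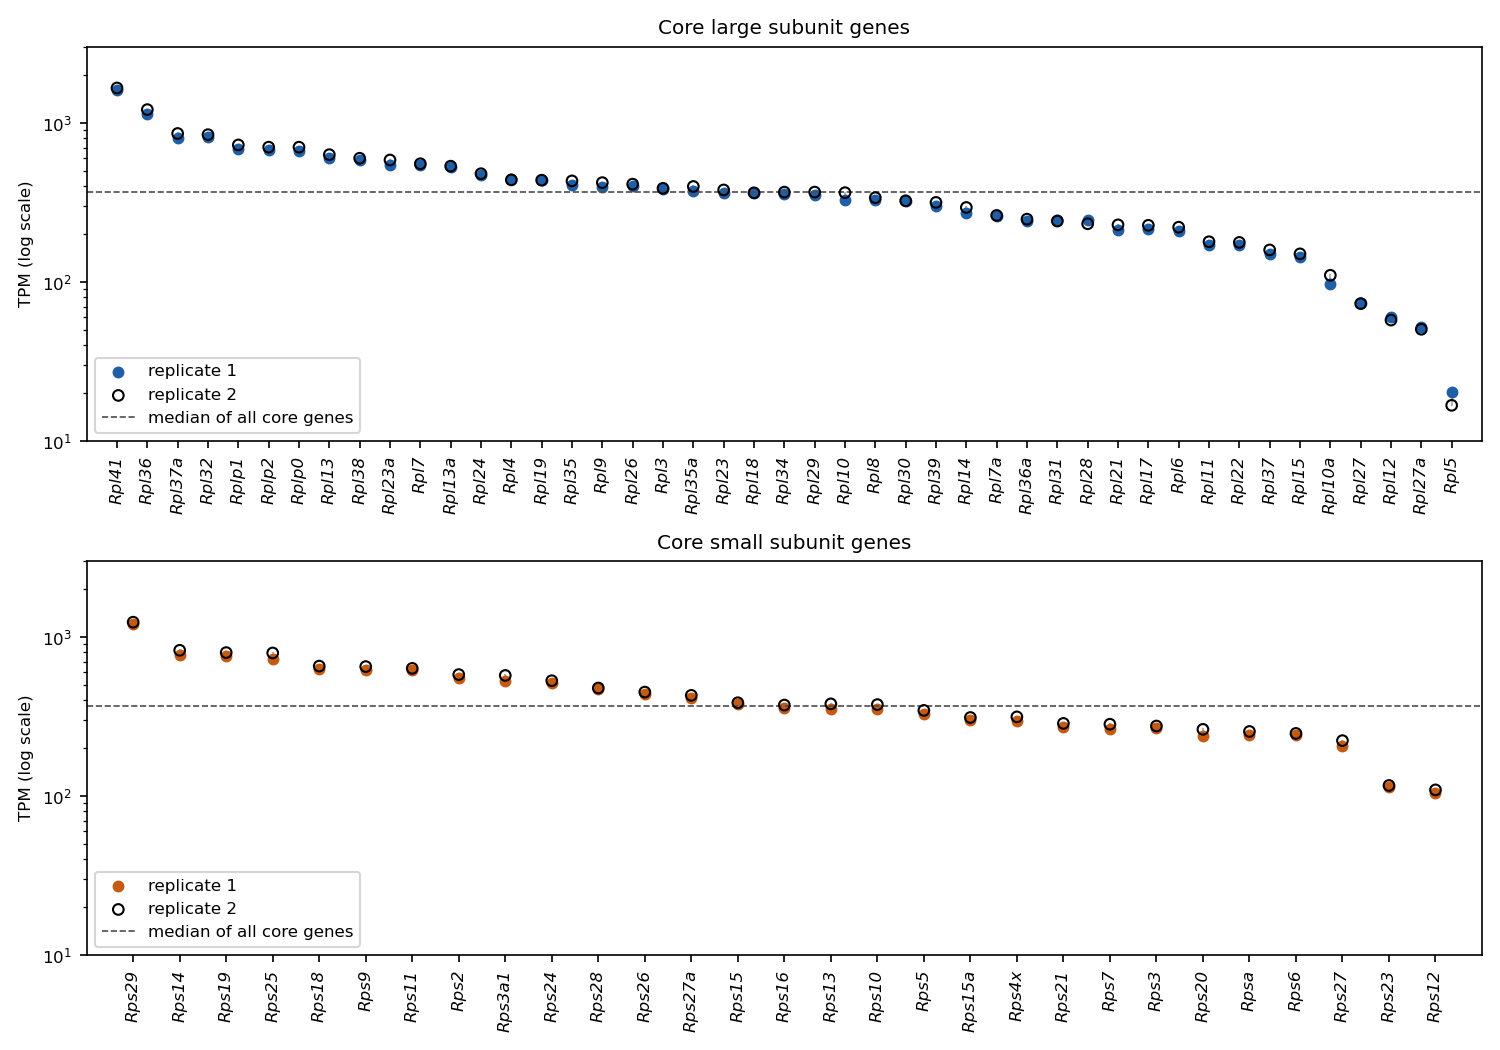
Level of 74 of the 77 core genes in TPM (vertical log axis), in order of its mean, for the large subunit (upper panel) and the small subunit (lower panel); filled points are replicate 1, open points replicate 2, and the dashed line is the median of all 77 core genes, 366 TPM. Most genes of both subunits lie along a shallow slope around the line, and Rpl5, Rpl27a, Rpl12 and Rpl27 fall away below it.

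At the lower end stood Rpl5, which with Rpl11 and the 5S ribosomal RNA forms a particle that can also bind the p53 regulator Mdm2. Rpl5 was at 20.4 and 16.8 TPM, 4532nd among protein-coding genes. Its partner Rpl11 was at 171 and 179 TPM, 9.40-fold higher by the means. Next came Rpl27a at 52.2 and 50.5 TPM, Rpl12, a protein at the base of the stalk, at 60.3 and 57.7 TPM, and Rpl27 at 74.2 and 73.2 TPM. Rpl10a had 96.6 and 110 TPM, Rps12 had 104 and 109 TPM, and Rps23, which lines the decoding centre, had 114 and 117 TPM. Rpl15, Rpl37 and Rpl22 completed the 10 lowest at 144 and 150, 150 and 159, and 170 and 177 TPM. Each of these values is that of the deposited table, and the reads assigned to pseudogene copies, given further on, bear on 9 of these 10 genes.

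Proteins of the ribosomal stalk, the arm that recruits translation factors, had nearly equal message levels. Rplp0, the anchor of the stalk, stood at 666 and 704 TPM, Rplp1 at 683 and 727 TPM and Rplp2 at 673 and 704 TPM. The log2 ratio to Rplp0 was 0.04 for Rplp1 and 0.01 for Rplp2, although each stalk holds several copies of the proteins of Rplp1 and Rplp2 for 1 of Rplp0. The hearts differed by more than the 3 genes did within a heart. On counts not divided by length the ratios were -1.61 and -1.79, since the deposited models of Rplp1 and Rplp2 are shorter.

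Around the exit tunnel, Rpl4 was at 447 and 438 TPM, Rpl17 at 214 and 227 TPM and Rpl39 at 301 and 316 TPM. Along the path of the mRNA, Rps2 was at 549 and 580 TPM and Rps3 at 267 and 276 TPM, both near the mRNA entry, and Rps26, near the exit, was at 436 and 450 TPM. Rps6, the substrate of S6 kinase, had 241 and 248 TPM. The ordering within each group was the same in both hearts. With Rps23 included, genes of the mRNA path differed by up to 4.90-fold as deposited, Rps2 being the highest and Rps23 the lowest. With pseudogene counts added, Rps2 came to a mean of 586 TPM, Rps26 to 448, Rps23 to 420 and Rps3 to 271. Rps3 was then the lowest. Core genes on the X chromosome numbered 4, and stood at 330 and 364 TPM (Rpl10), 241 and 248 TPM (Rpl36a), 301 and 316 TPM (Rpl39) and 295 and 315 TPM (Rps4x), within the range of the other core genes.

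**Figure D2:**
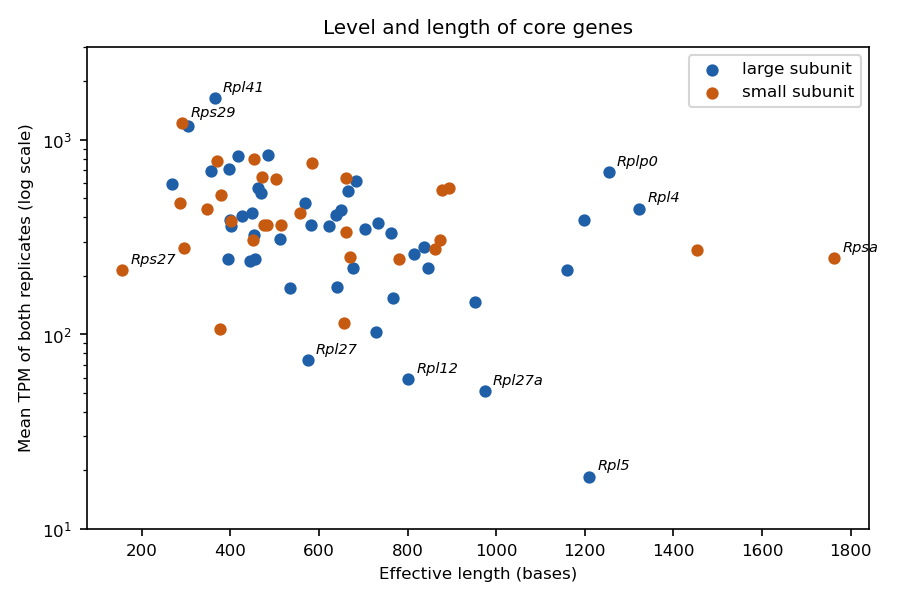
Mean TPM of both replicates (vertical log axis) against effective length in bases (the length over which a read can start) for 74 of the 77 core genes, coloured by subunit. The most abundant genes, Rpl41 and Rps29, are short, Rplp0 is a long gene above the core median, Rpsa, the longest, is below it, and Spearman's rho over all 77 genes is -0.38.

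In TPM, short messages tended to have the higher levels. Spearman's rho between TPM and effective length was -0.38 over the 77 core genes, and that between counts and effective length was 0.25. Both are descriptions over genes of the same libraries, in which length enters the TPM. The 24 core genes with many pseudogene counts, described further on, had a median length of 777 bases and a median of 241 TPM. The 53 others had 612 bases and 407 TPM. The correlation with pseudogene counts added was not computed. Rps27 was the 1 core gene whose deposited model, 255 bases, was exactly as long as its coding sequence, so that reads in its untranslated ends had no place in it. The deposited lengths of Rps19, Rpl7 and Rpl13a, at 469, 764 and 569 bases, were below the coding sequences compared with them (639, 813 and 612 bases).

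Each paralog was set against its parent within each heart, and a pair was called where both hearts gave the same direction, the mean log2 ratio of TPM + 1 exceeded the gap between the hearts and the deposited credibility intervals did not overlap. The parent was higher in 8 of 11 pairs and the paralog in 3. These calls are comparisons between genes of the same RNA, and they test no condition.

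Rpl3l was low in these hearts. Its level was 5.46 and 5.41 TPM, from 213 and 217 counts, against 383 and 388 TPM for Rpl3. The means of 5.43 ± 0.04 and 386 ± 3.27 TPM (SD, n = 2) differed 71.0-fold, and Rpl3l made up 1.40% and 1.38% of the pair. Rpl3l was the 8299th protein-coding gene by level. Its reads were split over a shorter transcript of 1033 bases, at 74.0% and 62.2% of the gene, and the full-length one of 1375 bases. No read of Rpl3l was shared with another gene by the posterior SD, which was 0 in both hearts.

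The germ cell paralogs were at or near 0. Rpl10l, an autosomal copy that stands in for X-linked Rpl10 in male germ cells, had 0 counts in both hearts. A count of 3 would have given it 0.085 and 0.086 TPM, so Rpl10 was at least 3873-fold and 4238-fold higher in the hearts (a limit from counting error only). Rpl39l, also known from male germ cells, had 9 and 7 counts (0.37 and 0.28 TPM), 951-fold under Rpl39. Their coding sequences were 84.8% and 85.3% identical to those of the parents.

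Rpl36al was above the core median and Rpl22l1 below it, and Rpl7l1 was below every core gene but Rpl5. Rpl22l1 was at 142 and 153 TPM and Rpl22, an RNA-binding protein of the large subunit, at 170 and 177 TPM, a 1.18-fold difference of the means. Rpl36al was 1.59-fold above Rpl36a, at 384 and 391 against 241 and 248 TPM. Rpl7l1 was 12.3-fold under Rpl7, at 46.1 and 42.9 against 541 and 554 TPM. The coding sequences were 66.9%, 87.9% and 49.8% identical to the parents in these pairs. Among the pseudogenes, Rps4l stood at 176 and 168 TPM against 295 and 315 TPM for Rps4x, 1.77-fold lower. Rps3a2 (5.23 and 6.39 TPM) and Rps3a3 (1.24 and 1.70 TPM) had shared reads, defined below, and lay 94.7-fold and 374-fold under Rps3a1 (528 and 573 TPM).

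As deposited, the Rps27 family was led by its copies. Rps27 was at 207 and 223 TPM, Rps27l, a target of p53, at 432 and 459 TPM, and the retrogene Rps27rt at 710 and 760 TPM. Rps27l was thus 2.07-fold and Rps27rt 3.42-fold above Rps27. The coding sequences of Rps27 and Rps27rt, printed above in their first part, cannot be told apart by any read that lies within them, and the deposited model of Rps27 holds no other bases. The model of Rps27rt was longer, at 370 bases. The split of reads between these genes was not tested, so the folds over Rps27 hold for the deposited values only. Summed, Rps27 and Rps27rt came to 917 and 983 TPM, above Rps27l in both hearts. Rps27 was also the member whose count was least certain, with a posterior SD of 8.77% and 7.58% of its mean. Rps19bp1, the binding protein, had 26.1 and 27.1 TPM.

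**Figure D3:**
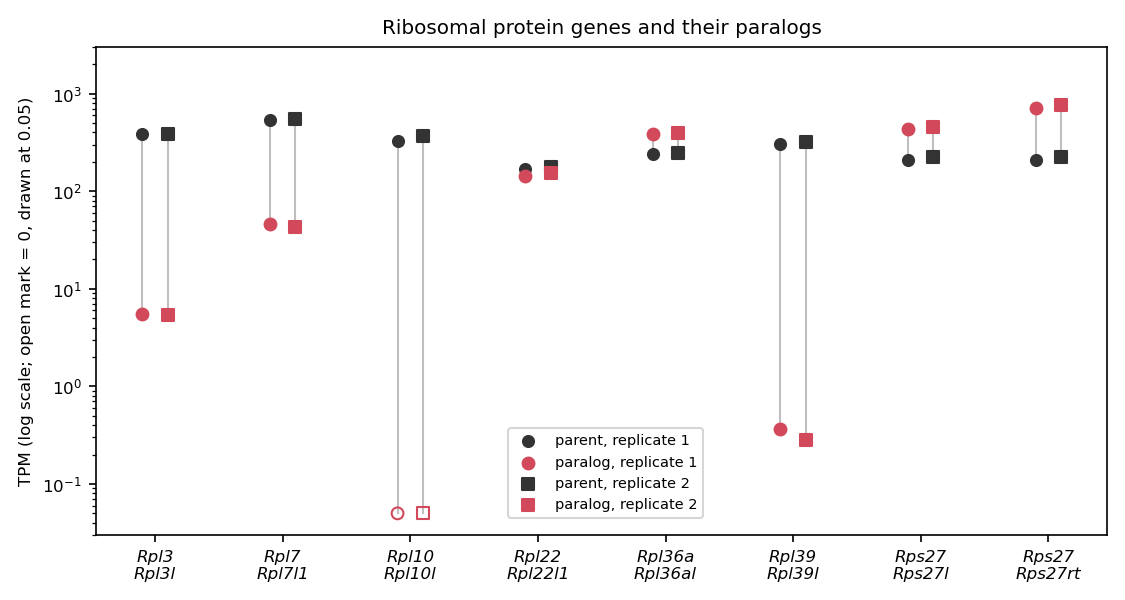
Level in TPM (vertical log axis) of 8 parent genes (dark) and their protein-coding paralogs (red), with circles for replicate 1 and squares for replicate 2, and open marks at 0.05 for Rpl10l, which had 0 counts. Rpl3l, Rpl7l1, Rpl10l and Rpl39l lie well below their parents, Rpl22l1 lies just below, and Rpl36al, Rps27l and Rps27rt lie above.

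Many reads that match ribosomal protein messages were assigned to pseudogenes. Processed pseudogenes are copies of mRNAs put back into the genome, and ribosomal protein genes have left more of them than most families. A pseudogene was matched where at least 50% of its 31-base words occur in transcripts of the members. Its parent was the member that held most of these words. There were 245 matched pseudogenes, for 63 of the 77 core genes and the paralogs Rpl22l1 and Rpl36al. They held 111372 and 113924 counts, beside 734420 and 758040 in the members, or 13.2% and 13.1% of the pooled counts. The 20 pseudogenes with most counts held 87.0% of them, while 30 had 0 counts in both hearts.

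Pseudogenes among those with most counts were exact copies over long stretches. Gm12918 (chr4:10848420-10849055), a copy of all 636 coding bases of Rpl13 without a mismatch, had 10497 and 10590 counts, against 15758 and 16279 for Rpl13 itself. Gm15500 had 9587 and 9439 counts, against 943 and 729 for Rpl5. Rpl15-ps3 (chr9:22185607-22186221), identical over all 615 coding bases of Rpl15, had 8864 and 8956 counts, against 5223 and 5425 for Rpl15. Rps23-ps1 (chr3:37714740-37715164), identical over 425 bases, had 7427 and 7773 counts, against 2853 and 2892 for Rps23. In the 3 last cases the copy had more counts than the gene in both hearts, as it did for 8 core genes in all.

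Copies held at least 10% of the pooled counts of 24 core genes, among them 9 of the 10 lowest and 1 of the 10 highest, Rps29. Genes outside the 10 lowest were also among them, such as Rpl28 (50.6% and 53.8%), Rpl31 (47.3% and 50.4%) and Rpl13 (40.1% and 39.5%). For Rpl5 the share was 91.0% and 92.8%, for Rpl27 it was 84.7% and 85.0%, for Rps23 it was 72.3% and 72.9%, and for Rpl27a it was 67.5% and 68.8%. With these counts added to the parent and divided by its own effective length, Rpl5 came to a mean of 231 TPM, 12.4-fold above its deposited value. That length is weighted by transcript shares of the counts left to the parent, and what the copies did to those shares was not tested. Rpl27 came to 488 TPM (6.62-fold), Rps23 to 420 TPM (3.65-fold), Rpl27a to 161 TPM (3.14-fold), Rpl12 to 165 TPM (2.80-fold) and Rpl15 to 394 TPM (2.68-fold). Rpl22 was the 1 gene of the 10 lowest with no matched pseudogene.

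With the counts added, the core genes lay closer together. Their SD over genes went from 1.05 to 0.70 log2 units, and 68 rather than 58 of 77 lay within 2-fold of the core median, which moved from 366 to 420 TPM. The 53 core genes with few pseudogene counts had an SD of 0.67 as deposited and a median of 407 TPM. This grouping leaves out copies annotated as protein coding, such as Rps27rt for Rps27. Another is Gm2000, with 4122 and 4198 counts, beside 6999 and 7319 for Rpl35. Whether the reads came from RNA of the pseudogenes or of the parent genes was not tested. By the deposited posterior SD, no member passed 10% of its mean, the rule used for shared reads, against 0.826% of protein-coding genes at or above 50 counts on average. This rule does not find all sharing. Rps27, whose model holds only bases that it shares with Rps27rt, stayed below it at 8.77% and 7.58%. A member that does not pass the rule can therefore still have reads in common with a copy. Below that limit the highest values after Rps27 were those of genes with many pseudogene counts: 4.70% and 4.97% for Rps12, 4.13% and 4.80% for Rpl5, 3.14% and 3.22% for Rpl27 and 3.06% and 3.10% for Rpl10a.

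**Figure D4:**
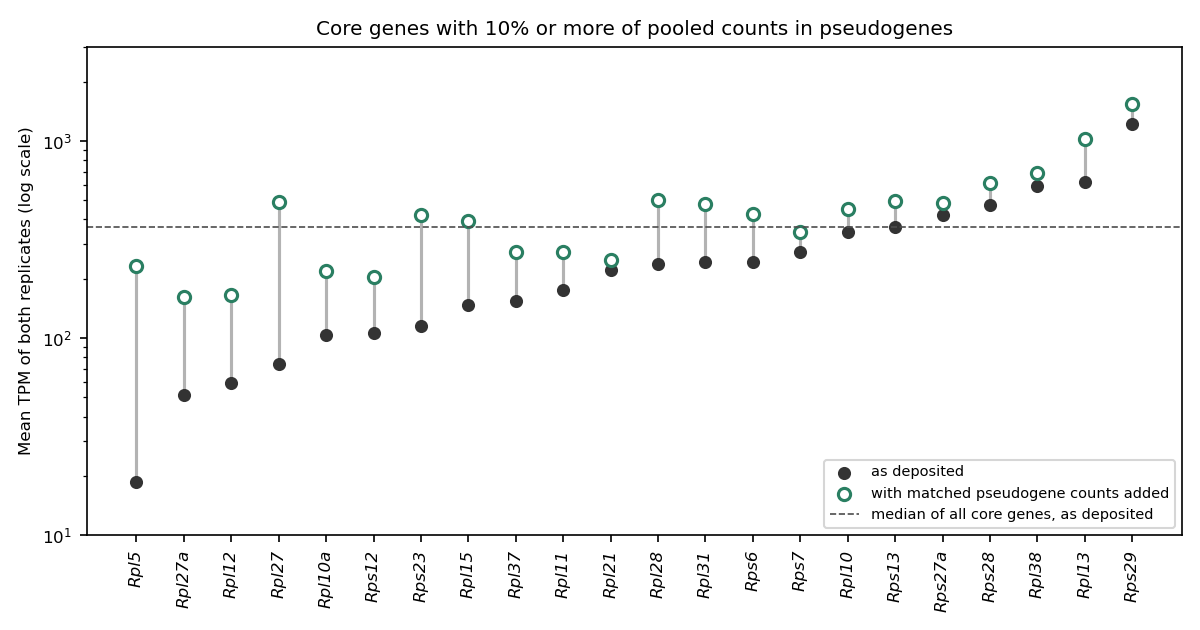
Mean TPM (vertical log axis) of 22 of the 24 core genes with at least 10% of their pooled counts in matched pseudogenes, as deposited (dark) and with those counts added (open green); the dashed line is the deposited core median of 366 TPM. On this axis Rpl5, Rpl27 and Rps23 move furthest, by 12.4-fold, 6.62-fold and 3.65-fold. Still below the line are Rpl27a, Rpl12, Rps12, Rpl10a, Rpl5, Rpl21, Rpl11, Rpl37 and Rps7.

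The hearts of the littermates differed little in these genes, and mostly in 1 direction. The difference was taken as the log2 ratio of replicate 2 over replicate 1 on TMM-scaled counts, for genes averaging 50 counts or more. The core median was 0.08, with quartiles of 0.05 and 0.10, while the median over all 13463 genes was -0.001. Of the 77 core genes 71 were higher in replicate 2, and of the 84 members with enough counts 77 were, against 49.6% of all genes. Among protein-coding genes averaging 1000 counts or more, 47.5% were higher. The median counting error of a core gene was 0.02 log2 units, less than the core median, but with 1 heart on each side the difference has no replicate check. In 24 core genes with many pseudogene counts 20 were higher in replicate 2, and in the 53 others 51 were.

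Past 1.2-fold there was 1 member, Rpl5, lower in replicate 2, against 15.2% of all genes in either direction, 7.97% higher and 7.26% lower. Among protein-coding genes with 1000 counts or more 5.28% passed 1.2-fold. Past 2-fold there was no member, against 0.498% of genes. Rpl5 had 943 and 729 counts and a log2 ratio of -0.34, and with its pseudogene counts added the ratio was -0.02. The core gene furthest the other way was Rpl10a at 0.19, or 0.08 with its pseudogene counts added. Those lower in replicate 2 were, besides Rpl5, Rpl28 (-0.08), Rpl12 (-0.04), Rpl4 (-0.01), Rpl27 (-0.0082) and 1 gene not named here. With pseudogene counts added, Rpl28, Rpl12 and Rpl27 were at 0.01, 0.05 and 0.02, and the core genes ranged from -0.02 to 0.21 around a median of 0.07.

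Other cell markers moved between the same hearts. All 6 erythroid genes were lower in replicate 2, with a median log2 ratio of -0.65, and their summed level was 13809 and 8835 TPM. The 4 cardiomyocyte genes were lower as well, with a median of -0.16 and sums of 38646 and 34266 TPM. Of the 3 lung epithelial markers, Scgb3a2 was near 0 in replicate 1 (2.96 TPM) but not in replicate 2 (563 TPM), Scgb1a1 was at 0.97 and 74.3 TPM, and Sftpc at 25.5 and 0.34 TPM. Of the skeletal muscle list Myh4 had 0 counts and Myh1 1.01 and 7.32 counts, while Ckm (2810 and 2696 TPM) is also a heart gene. Their part in the shift of the ribosomal protein genes was not tested, and in whole hearts fewer cells of a type and less RNA per cell cannot be told apart.

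**Figure D5:**
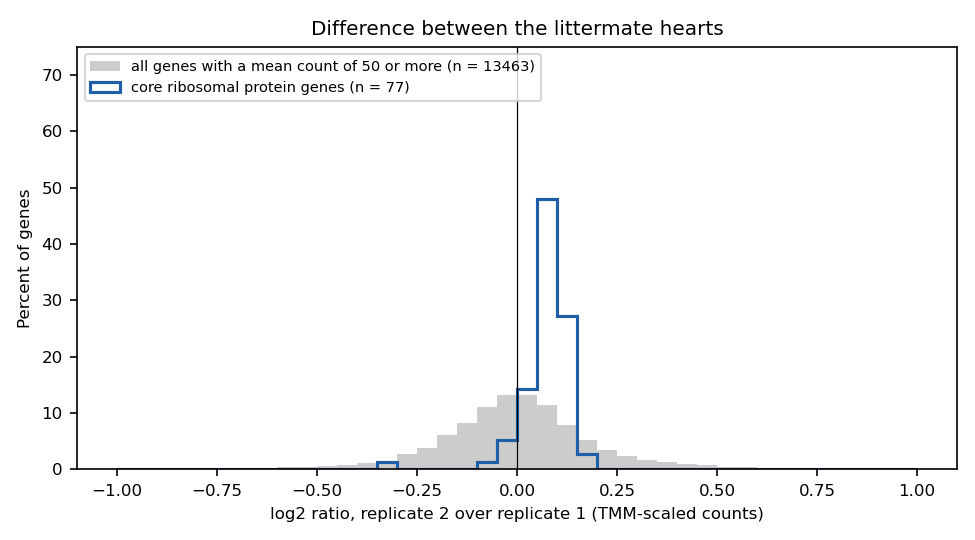
Percent of genes (vertical axis) by log2 ratio of replicate 2 over replicate 1 (horizontal axis, bins of 0.05), for all 13463 genes averaging 50 counts or more (grey, the 67 genes past 2-fold not drawn) and the 77 core genes (blue outline). The core genes form a narrow peak at 0.08 to the right of the grey median, with Rpl5 alone at -0.34.

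Most members were represented by a coding transcript. Of the 61 members with several annotated transcripts and enough TPM, 60 had the same main transcript in both hearts and 54 a protein-coding one, and in 25 it held 90% or more of the gene. Another 24 members had 1 annotated transcript. Rps24, known for its tissue-dependent last exons, had only 2 quantified transcripts, of which Rps24-201 held 97.3% and 97.4%. Forms with other last exons that had no model of their own were not measured.

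The exceptions were 7 genes. In Rps20 the main form, Rps20-201 of 582 bases, was annotated as a retained intron, at 93.3% and 93.1%. Its coding Rps20-203, of 3706 bases for a coding sequence of 360 bases, held 6.03% and 5.89%. In Rpl35 the main form was annotated as a processed transcript (Rpl35-203, 89.4% and 89.4%). These are labels of the annotation, and whether the RNA kept an intron was not tested. Rpl23 was led by the processed transcript Rpl23-204 at 67.2% and 66.3%. Rpl12 was led by Rpl12-201, annotated as a target of nonsense-mediated decay, at 58.3% and 58.2%, with its coding Rpl12-203 at 30.9% and 31.2%. In Rpl5 the retained-intron form Rpl5-205 held 43.2% and 52.5% and the coding Rpl5-201 39.0% and 34.3%. By counts, with no division by length, the longer Rpl5-201 led, with 591 and 423 against 241 and 238. Most pooled counts of Rpl5 (91.0% and 92.8%) and Rpl12 (63.3% and 65.4%) were in pseudogene copies. The transcript shares of these genes cover only the counts left to the genes, and what the copies did to the shares was not tested. The main form of Rpl13a, at 43.8% and 42.1%, had no match in the annotation used for names. In Rps18 the order of these length-divided shares turned between the hearts, with the coding Rps18-201 at 52.9% and 47.0% and the processed transcript Rps18-209 at 45.6% and 51.1%. By counts Rps18-201 led in both hearts, so that the main transcript was protein coding in 56 of the 61 members rather than 54.

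Forms annotated as retained introns held 10% or more of the gene in both hearts for 7 members. They included Rps20, Rpl5, Rps16 (28.4% and 29.5%), Rps19 (24.1% and 23.4%), Rpl10a (11.3% and 12.3%) and Rpl12 (10.9% and 10.6%). For Rpl5, Rpl12 and Rpl10a (54.6% and 50.9% of pooled counts in copies) these are again shares of the counts left to the gene. The median member had 0.28% and 0.22%. In Rpl22l1 the coding Rpl22l1-206 held 53.9% and 46.5%, and the processed transcript Rpl22l1-209 held 29.8% and 35.2%.

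The start of the message was looked at in the promoter sequences of RefSeq (GRCm38.p6), which held 57 of the core genes and 66 of the members. A run was counted where a C was followed by C or T only, for at least 7 bases in all, on the sense strand and starting within 10 bases of the annotated start. It was present in 27 of 57 core genes (47.4%) and 30 of 66 members (45.5%), against 3821 of 27025 genes (14.1%). By this rule the runs of Rpl27a, Rpl35, Rpl15 and Rpl7a were the longest, at 20, 18, 17 and 17 bases. They are shown in capitals in the 15 bases before and 15 after the start. The run of Rpl27a goes on past the end of its window. That of Rpl7a begins at the search limit, 10 bases before the start. Pyrimidines directly precede it, so its counted length is cut by the rule. Rplp0, Rpl41 and Rpl3l, with no such run in this window, are given beside them.
Rpl27a, chr7:109519180-109519209, plus strand: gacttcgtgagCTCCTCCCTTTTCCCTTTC
Rpl35, chr2:39005117-39005146, minus strand: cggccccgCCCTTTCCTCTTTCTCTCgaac
Rpl15, chr14:18270972-18271001, minus strand: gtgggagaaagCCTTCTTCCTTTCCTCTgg
Rpl7a, chr2:26910792-26910821, plus strand: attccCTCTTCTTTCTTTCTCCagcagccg
Rplp0, chr5:115559452-115559481, plus strand: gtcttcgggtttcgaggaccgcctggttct
Rpl41, chr10:128549154-128549183, minus strand: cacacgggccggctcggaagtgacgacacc
Rpl3l, chr17:24727811-24727840, plus strand: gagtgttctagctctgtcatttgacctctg
Such a run is a match of letters near an annotated start, and the start used in these hearts was not measured.

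Genes that work with the ribosomal proteins were at other levels. Ribosomal proteins with other symbols were of core level: Fau stood at 306 and 316 TPM and Rack1 at 223 and 233 TPM. The core gene Rps27a, a fusion with ubiquitin, had 416 and 430 TPM. The 26 initiation and elongation factors, all detected, had a median of 104 TPM and were led by Eef1a1, which brings aminoacyl-tRNA to the ribosome, at 1663 and 1714 TPM. Eif1, Tpt1 and Eif5a followed at 1441 and 1582, 813 and 848, and 731 and 736 TPM. The 77 mitochondrial ribosomal protein genes, which serve the separate ribosome of mitochondria, had a median of 102 TPM, led by Mrpl42 (661 and 729 TPM), Mrps21 (400 and 429 TPM), Mrpl30 (363 and 378 TPM) and Mrpl51 (316 and 330 TPM).

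Ribosome assembly and signalling genes were lower. The 30 biogenesis factors had a median of 24.4 TPM, with Npm1 at 193 and 196 TPM, Ncl at 131 and 114 TPM, Nop10 at 112 and 117 TPM and Eif6, which keeps the subunits apart, at 78.2 and 73.6 TPM. Of 17 genes of the kinase pathway to the ribosome 16 were detected, with a median of 11.8 TPM, led by Eif4ebp1 (336 and 360 TPM), Rheb (188 and 190 TPM), Akt1s1 (69.2 and 68.4 TPM) and Eif4ebp2 (32.5 and 31.6 TPM). The 7 host genes of small nucleolar RNAs had a median of 29.7 TPM, with Gas5 at 163 and 174 TPM, Snhg6 at 55.2 and 50.1 TPM, Snhg3 at 43.7 and 43.2 TPM and Zfas1 at 28.0 and 31.5 TPM.

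Between the hearts 49.6% of all genes were higher in replicate 2. In these lists the higher ones were 17 of 26 translation factors (median log2 ratio 0.02), 52 of 77 mitochondrial ribosomal protein genes (0.035), 3 of 3 ribosomal proteins with other symbols (0.07), 4 of 7 host genes (0.09), 6 of 30 biogenesis factors (-0.09) and 8 of 17 kinase pathway genes (-0.02). The counts of host genes and kinase pathway genes were near the share of all genes.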

How the data were processed

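The authors deposited a gene and a transcript table per library, unpooled, quantified on mm10 with GENCODE M4, per the deposited read-me. For the aligner and its version, nothing is stated in the sources used here. In the deposited expected counts, reads that match several features are shared out between them. The deposited TPM and FPKM values divide by effective length. The deposited posterior SD of the count, credibility bounds (width not stated) and lengths were read as a signal. The deposited percent column is a transcript's share of its gene.

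Symbols, biotypes and coordinates came from GENCODE M21 (GRCm38), in which 42462 Ensembl identifiers were found. Rounded counts were scaled with edgeR 4.0.16 (TMM, R 4.3.3), and ratios used a prior count of 2; DESeq2 1.42.0 size factors were an alternative. Values were computed in Python 3.11.15 with numpy 2.4.6 and pandas 2.3.3, and coding sequences were aligned with Biopython 1.88. The ratio was tested on simulated data. Intervals and floors cover counting error only. With 1 group no p-value was computed.

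Members and lists were chosen with earlier results of these data known. By rule, the genes named were the 10 most and 10 least abundant core genes, role groups, paralogs, members past 1.2-fold, members with exceptional transcripts, the 5 pseudogenes with most counts and the 4 most abundant of each list; the X-linked genes, those lower in replicate 2, Rps24, Rps27a and the genes with retained introns were picked after their values were seen. A few genes, counted in the totals, are not reported here by name.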

Additional observations from a re-analysis of the deposited data

How the results depend on the processing

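Of 98 values recomputed under the alternatives for the main results, 76 kept within their limits, 21 moved and 1 turned. The limit was a fixed ratio for counts of genes, and a spread over core genes for the core median between the pups. For the other values it was the SD between the hearts. A value averaged over the hearts always lies within that SD of each heart alone. For such values, leaving out 1 replicate could not give a move, and these are counted among the 76. The core median was 306 in FPKM, 491 TPM rescaled to nuclear protein-coding genes, 187 in CPM (counts scaled by depth and not divided by length) and 420 TPM with pseudogene counts added. The members' share was 4.64%, 1.64% and 3.91% in the last 3 of these settings. The large minus small difference was -0.10 on counts and -0.057 with pseudogene counts added, and the spread of core levels was 1.01 and 0.70. On counts the log2 ratio of Rplp1 to Rplp0 turned to -1.61, and that of Rplp2 moved to -1.79. The pseudogene share was 12.9% at 80% of words shared, 6.63% by symbol only and 19.8% in TPM. The members with shared reads numbered 1 at 5%, Rps27. Scaling by spike-ins, which had only 262 and 246 counts, gave a core median of 0.14 between the pups, and without a filter on low counts 2 members passed 1.2-fold, Rpl39l being the other. Alternatives added after seeing the data gave 13.9% for copies of any biotype, and for core genes with few pseudogene counts a spread of 0.67 and a median of 407 TPM.

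Leaving out 1 replicate gave 84 members detected, a share of 3.39% to 3.53%, a core median of 360 to 376 TPM, a subunit difference of -0.05 to -0.0027, a spread of 1.04 to 1.06, a log2 ratio to Rplp0 of 0.037 to 0.047 for Rplp1 and 0.0006 to 0.014 for Rplp2, a pseudogene share of 13.1% to 13.2%, 0 members with shared reads and 8 parents called higher, with each replicate alone. The main transcript was protein coding in 54 and 55 members. Sameness of the main transcript and the difference between the pups need both replicates, so neither has such a value. The pair rule also uses agreement and the gap between the hearts. With 1 replicate the pair calls rest on the credibility intervals alone. No paired analysis was possible because there is only 1 group.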
